A study of Oryza sativa Japonica Group with 20 samples.

Results

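The comparison described here is rice root against rice leaf after 2 h of dehydration. It rests on 4 of the 20 arrays of the study, with 2 arrays of root and 2 of leaf, and it covers all 27609 genes that remain once the 6 control features are set aside. Every gene was kept, so the genes compared were not chosen by how they moved, unlike some of the named genes below. The plants were seedlings of the japonica cultivar Nakdong and carried no transgene. At an age of 14 days they were taken out of the soil, held in fresh water for 1 day, wiped, and left to dry at 32°C and 50% humidity under continuous light of 150 μmol per square metre and second, with the roots wrapped in a tissue layer under aluminum foil. Leaf and root were harvested separately at 0, 0.5, 2, 6 and 12 h, which gives 10 groups of 2 arrays each. Both tissues of the comparison had therefore been dried for the same time. The study reports that roots lost fresh weight faster than leaves, so equal time did not mean equal water loss. How far the degree of water loss enters the differences between the tissues was not tested. The 0 h groups had been through the soil removal and the water but not the drying. The labels call the 2 arrays of a group biological replicates, and the small number of arrays limits the precision of every value below.

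Leaves carry the photosynthetic apparatus. The small subunit of Rubisco is made from nuclear genes and joins the large subunit, made in the plastid, to form the enzyme that fixes carbon dioxide, while chlorophyll a/b-binding proteins hold the pigments that harvest light. Roots take up water and ions and normally express such genes at a low level. In both organs, loss of water raises abscisic acid, a hormone that turns on genes for dehydrins and other protective proteins. The leaf and the root each hold many cell types, and in bulk samples like these fewer cells of a type and less RNA per cell cannot be told apart.

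The array reads most genes by several probes near their 3′ end, and the values are intensities on a linear scale, one per gene and array. Differences are given as log2 of root minus leaf, so a positive value means higher in root. A gene was called when its adjusted p was under 0.05 (limma, Benjamini-Hochberg over all genes) and its log2 difference was above 1 or below -1. The 2 root arrays had a correlation of 0.977 across genes on the log2 scale, and 5.08% of genes lay more than 2-fold apart between them. The 2 leaf arrays had a correlation of 0.923 and 21.7% of genes lay more than 2-fold apart. A control feature of random sequences read 159 and 115 on the leaf arrays (replicates 1 and 2) and 185 and 159 on the root arrays. On leaf replicate 2 only 1.04% of genes lay below that feature, against 5.36% on leaf replicate 1 and 9.29 and 8.08% on the root arrays, so this leaf array stands apart at the dim end. For the counts that moved most with it, the value without it is given.

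The study designed primers that identify the transcripts it followed, and those of 3 genes are shown because they mark the contrasts in the named genes at 2 h: a carbon fixation gene that stayed higher in leaf, a light-harvesting gene whose leaf excess shrank most, and a dehydration gene that was higher in root. They are written 5′ to 3′.
rbcS forward: accaccgacaccggcgagaa
rbcS reverse: ttgcgctcggctagctcatc
CB6 forward: aacatcctcaccagcctcaa
CB6 reverse: acgcaccatcgatcgtacaa
AWPM forward: ctcttctccggcaaccacgc
AWPM reverse: agctcgatcacaccgagata

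Photosynthesis genes were still higher in leaf than in root at 2 h. All 7 genes of this kind that the study names were called higher in leaf, against 11.5% of all genes. rbcS (AK121444), which encodes the small subunit of Rubisco, read 33313 and 43004 in leaf and 1844 and 6934 in root. As a ratio the root arrays differed from each other by more than the leaf arrays did, but both lay far below leaf. The difference was -3.40 (SE 0.81, adjusted p = 0.0106, limma), which puts leaf 10.6-fold above root. The call rests on particular arrays, since the adjusted p was 0.0816 without leaf replicate 2 and 0.114 without root replicate 1.

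CB1 to CB5, chlorophyll a/b-binding proteins of the light-harvesting antenna, were bright in leaf and lay between 4.67 and 13.9% of the leaf mean in root. CB1 (AK060904) read 28445 and 36264 in leaf and 1795 and 2814 in root, a difference of -3.84. CB2 (AK119176) read 34271 and 30843 in leaf and 4336 and 4716 in root, a difference of -2.85. In both genes the replicates of each tissue were close and the tissues did not overlap. CB3 (AK066762) read 38101 and 44517 in leaf and 3551 and 3619 in root, a difference of -3.52. CB4 (AK060222) read 36967 and 43993 in leaf and 1488 and 2289 in root, and its difference of -4.45 (SE 0.38, adjusted p = 1.46e-05, limma) was the largest of the named genes. CB5 (AK119534) read 28303 and 38458 in leaf and 1223 and 2428 in root, a difference of -4.26. Each of these 5 genes kept its call when any single array of the 4 was left out. Rice has several closely similar copies of these genes, and how far their probes share signal between copies was not tested.

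CB6 (AK106085), another chlorophyll a/b-binding protein, had the smallest leaf excess of the group. It read 14942 and 13769 in leaf and 4045 and 5262 in root. Both leaf arrays lay above both root arrays, with root at 32.4% of leaf on the mean intensity, and the difference was -1.64 (SE 0.54, adjusted p = 0.0468, limma). Before drying, CB6 read 22672 and 16165 in leaf and 102 and 84 in root, where both arrays lay below the random-sequence feature. The leaf excess at 0 h was thus at least 125-fold, taking the root at that feature, against 3.11-fold at 2 h. The call at 2 h is close to the threshold and was lost without any 1 of the 4 arrays, with an adjusted p between 0.127 and 0.206.

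Genes linked to dehydration were bright in both tissues, and 1 of the 4 followed was called different between them. AWPM (AK102039) belongs to a family named after a plasma membrane protein of wheat. It read 14116 and 8722 in leaf and 37200 and 45797 in root at 2 h, so that both root arrays were well above both leaf arrays. The difference was 1.90 (SE 0.47, adjusted p = 0.0129, limma), a 3.72-fold higher level in root, where 6.95% of all genes were called higher in root. Before drying the same gene read 6537 and 2656 in leaf and 2610 and 2296 in root, and the difference of -0.77 was not called (adjusted p = 0.313). The call at 2 h was lost without leaf replicate 2 (adjusted p = 0.133), root replicate 1 (0.0501) or root replicate 2 (0.0983).

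The dehydrin gene rab21 (AK121952), a classical target of abscisic acid in rice, read 21739 and 23853 in leaf and 32186 and 48185 in root. The tissues did not overlap, but the difference of 0.79 (95% interval 0.18 to 1.40, adjusted p = 0.067, limma) was not called. dip1 (AK070197), a marker that the study took as induced by water deficit, read 40463 and 40120 in leaf and 39925 and 46633 in root. The root arrays lay on either side of the leaf arrays, and the difference was 0.10 with a 95% interval of -0.50 to 0.70. ADF (Os03g0820500), a putative actin depolymerizing factor of the kind that severs and disassembles actin filaments, read 39633 and 44139 in leaf and 39369 and 51017 in root. Its ranges overlapped too, and the difference was 0.10 with a 95% interval of -0.47 to 0.67. At 0 h ADF had been higher in leaf by a called difference of -1.06 (adjusted p = 0.0113), from 8819 and 8230 in leaf against 4710 and 3523 in root. That call was lost when leaf 0 h replicate 1 (adjusted p = 0.0707) or root 0 h replicate 2 (0.117) was dropped.

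**Figure D1:**
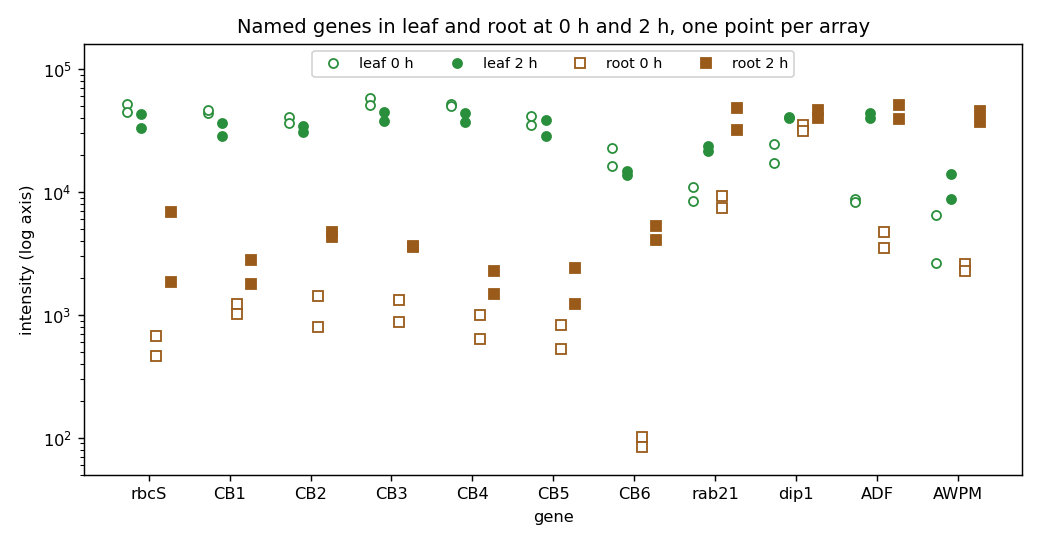
Intensity of the 11 named genes on each array (log axis), with green circles for leaf and brown squares for root, open at 0 h and filled at 2 h. At 2 h the filled squares of rbcS and CB1 to CB6 sit below the filled circles, those of AWPM sit above, and those of dip1 and ADF overlap them.

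The tissue difference of the 7 photosynthesis genes was smaller at 2 h than at 0 h, and for 2 of them the test of that shift itself was passed. The study picked CB1 to CB6 out of a larger family because its arrays showed them up-regulated in root at all times examined. A shift toward root in CB1 to CB6 was thus favoured by how they were chosen. The shift compares the change from 0 h to 2 h in root with that in leaf, so it shares the 2 h arrays with the tissue difference and is no independent evidence of it. For CB6 it was 6.05 (SE 0.76, adjusted p = 0.00562, limma), or at least 5.33 with the root at 0 h set to the random-sequence feature, and the gene rose at least 30.1-fold in root, where 1.67% of all genes were called higher. For CB2 the shift was 2.33 (SE 0.53, adjusted p = 0.0405), with a rise in root of 2.09 on the log2 scale (adjusted p = 0.00798). CB2 read 802 and 1415 in root at 0 h, well under its values at 2 h. The CB2 shift lost its call without any 1 of 6 of the 8 arrays involved, among them leaf 2 h replicate 2 (adjusted p = 0.157). The shift was 3.04 for rbcS (adjusted p = 0.177), 2.14 for CB3 (0.0984), 1.50 for CB1 (0.3), 1.56 for CB4 (0.145) and 1.59 for CB5 (0.275), and none of these was called. Only that of CB3 passed under any alternative, on leaving out leaf 0.5 h replicate 1 and root 0.5 h replicate 2 together (adjusted p = 0.0382). In leaf itself none of the 7 genes had a called change from 0 h to 2 h, where 8.32% of all genes were called higher and 3.62% lower, the values lying between -0.48 for CB1 and -0.20 for CB5.

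The AWPM shift was 2.66 (adjusted p = 0.054), just outside the threshold. Its change from 0 h to 2 h was 4.08 in root, which was called (adjusted p = 0.000311), and 1.41 in leaf (adjusted p = 0.0631), which was not. rab21 rose in both tissues, by 2.24 in root and 1.24 in leaf, and ADF rose by 3.46 in root and 2.30 in leaf. The shifts of 1.00 for rab21 (adjusted p = 0.203) and 1.16 for ADF (0.119) were not called, and neither was that of dip1, -0.60 (0.491). With the same pair of 0.5 h arrays left out, the ADF shift was called (adjusted p = 0.049).

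**Figure D2:**
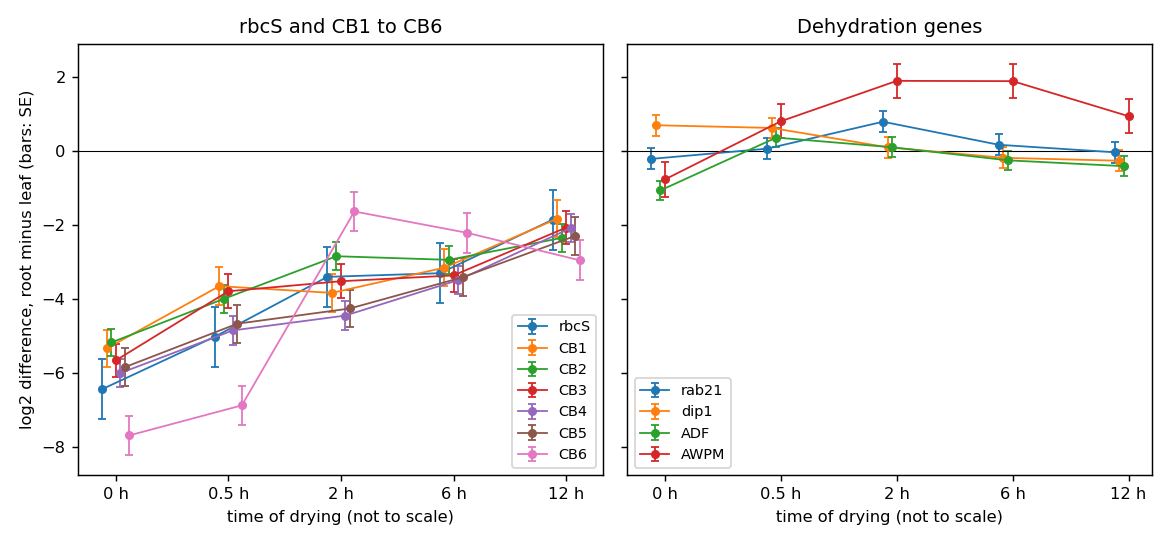
Log2 difference of root minus leaf for the named genes at 0, 0.5, 2, 6 and 12 h, with bars for the SE of the fit, the photosynthesis genes on the left and the dehydration genes on the right. CB6 moves from -6.88 at 0.5 h to -1.64 at 2 h. The other photosynthesis genes lie between -5.02 (rbcS) and -3.655 (CB1) at 0.5 h and between -4.45 and -2.85 at 2 h. AWPM is highest at 2 and 6 h (1.90 and 1.89).

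Over the time course the 2 h point was where CB6 came closest to equal in the 2 tissues, with differences of -6.88 at 0.5 h, -2.21 at 6 h and -2.96 after 12 h. The neighbouring values at 2 and 6 h differ by about the SE of 0.54 and no test of that step was made. For AWPM the differences were 0.80 at 0.5 h, 1.89 at 6 h and 0.94 at 12 h, of which only that at 6 h was called. For rab21 the differences at the other times lay between -0.21 and 0.17, so 0.79 at 2 h was the highest of the 5, though not called.

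Genes carried by the plastid and mitochondrial genomes form a further pair of groups, identified by their identifiers alone. Plastid proteins include the photosystem subunits and the large subunit of Rubisco, and mitochondrial proteins include subunits of the respiratory chain. Of 108 features with CAA identifiers, from the plastid genome, 74 (68.5%) were called higher in leaf and 0 higher in root, beside 11.5 and 6.95% of all genes, with 88 and 0 at an unadjusted p under 0.05 (limma). Their median intensity was 15752 and 18451 on the leaf arrays and 3049 and 3220 on the root arrays. The tissues were clearly separate at the median, and the median difference was -1.78, with a range of -6.27 to 0.23 and 102 of the 108 below 0, beside a median of -0.06 over all genes. At 0 h, with leaf medians of 14902 and 6372, 37 were called higher in leaf, beside 7.19% of all genes. No CAA feature had a called shift (0 of 108, with 7 at an unadjusted p under 0.05), beside 0.587% of all genes toward root and 1.69% toward leaf. A single probe measures 100 of the 108, and the count of 74 fell to 33 without leaf replicate 2, 40 without root replicate 1 and 41 without root replicate 2.

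Of 53 features with BAC identifiers, from the mitochondrial genome, 10 (18.9%) were called higher in leaf at 2 h and 0 higher in root, again beside 11.5 and 6.95% of all genes, with 14 and 0 at an unadjusted p under 0.05. Their median intensity was 4276 and 7758 in leaf and 2776 and 3009 in root. Leaf was the higher tissue on both arrays, more so on replicate 2, and the median difference was -0.75 (range -4.11 to 1.36). At 0 h the leaf medians were 1692 and 799 and the root medians 1478 and 3567, which overlapped, and the median difference was 0.99, with 4 called higher in root and 0 higher in leaf (15 and 0 at an unadjusted p under 0.05), beside 11.2 and 7.19% of all genes. In leaf, 20 of the 53 were called higher at 2 h than at 0 h, beside 8.32% of all genes, and none was called in root, where 1.67% of all genes were called higher and 1.79% lower (0 in both directions, and 0 at an unadjusted p under 0.05). The shift was below 0 for 52 of the 53, with a median of -1.73, but none was called after adjustment (16 at an unadjusted p under 0.05). The 10 calls at 2 h became 1 without leaf replicate 2, 3 without root replicate 1 and 2 without root replicate 2. The 20 calls of the change in leaf became 0 when replicate 2 of leaf at 2 h or at 0 h was dropped, 10 when replicate 1 of leaf at 0 h was dropped and 13 when either root array at 2 h was dropped. A single probe measures 44 of the 53.

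Across all 27609 genes, 5096 (18.5%) were called at 2 h, of which 1920 (6.95%) were higher in root and 3176 (11.5%) higher in leaf, and 8870 had an unadjusted p under 0.05. In every called gene both arrays of the higher tissue lay above both of the lower. The thresholds for a call nearly ensure this, so it adds no support, and the share over all genes was not counted. The root-high genes were bright, with a median intensity of 4377 and 4702 in root and 1284 and 1113 in leaf. The leaf-high genes were dimmer, with 1028 and 1980 in leaf (replicates 1 and 2) and 250 and 228 in root. The median difference was 1.73 among the root-high genes, 697 of them passing 4-fold and 68 passing 16-fold. Among the leaf-high genes it was 2.32 in size, with 1998 past 4-fold and 299 past 16-fold. In 1248 of the leaf-high genes the root lay below the random-sequence feature on both arrays, so that their fitted differences are not exact ratios, and the same held for leaf in 19 of the root-high genes.

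**Figure D3:**
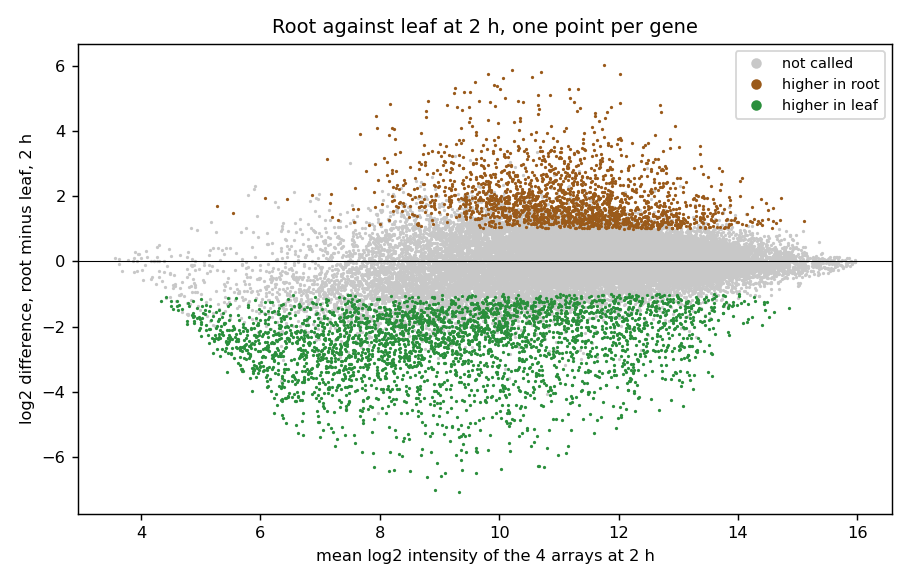
Log2 difference of root minus leaf at 2 h against the mean log2 intensity of the 4 arrays, with 1 point per gene, brown where called higher in root, green where called higher in leaf and grey where not called. Of the 5096 called genes, the 3176 leaf-high ones extend to the dim end on the left, where few root-high ones lie.

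In the main fit the excess of leaf-high genes came from the dim end. When the genes were divided into 5 classes of equal size by their mean over all 20 arrays, the dimmest class, with mean intensities of 12.7 to 560.7, held 1661 leaf-high genes (30.1% of the class) and 218 root-high genes. The other 4 classes together held 1515 leaf-high and 1702 root-high genes. Most other settings also had more root-high genes there, such as 1746 and 2277 with quantile normalization. The other way round were 340 and 273 with treat against a log2 difference of 1, and 920 and 902 with only the arrays of 2 h. Leaving out root replicate 2 also gave more leaf-high than root-high genes in these classes. In the dimmest class the median intensity was 288 and 503 in leaf and 214 and 215 in root at 2 h, with leaf replicate 2 the highest. At 0 h the same class read 215 and 199 in leaf and 282 and 263 in root, and it held 399 leaf-high and 863 root-high genes.

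The balance of directions at 2 h depends on how the dim genes are treated and on 1 array. Leaf-high genes made up 62.3% of the calls, but 48.2% (2804 against 3019 root-high) after quantile normalization of all arrays, 56.2% with dim values raised to the random-sequence feature and 44.9% (1279 against 1568) with the dimmest 25% of genes left out. Without leaf replicate 2 there were 941 root-high and 951 leaf-high genes, 50.3% leaf-high, and the dimmest class held 358 leaf-high genes. Leaving out leaf replicate 1 gave 1881 and 3654. Leaving out a root array gave 977 and 1545 (replicate 1) or 690 and 1284 (replicate 2).

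**Figure D4:**
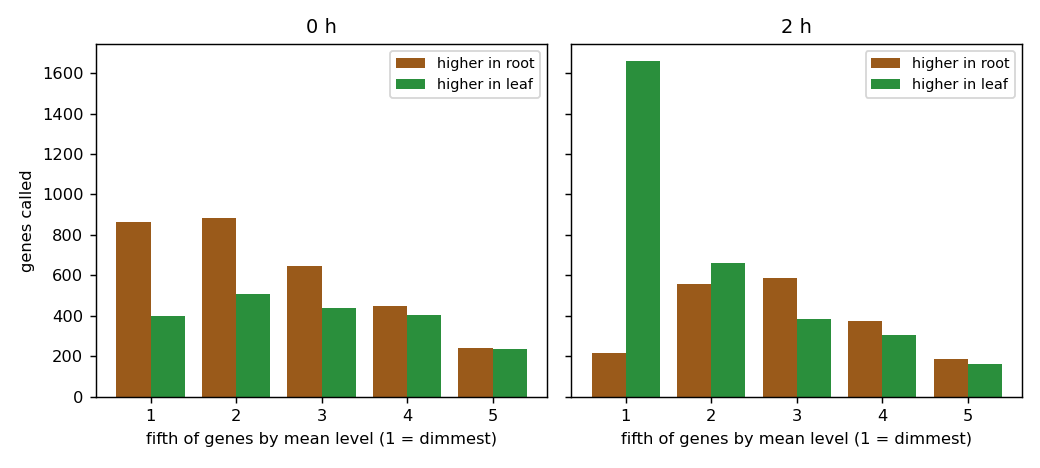
Number of genes called higher in root (brown) and in leaf (green) in 5 classes of equal size by mean intensity over the 20 arrays, class 1 being the dimmest, at 0 h on the left and 2 h on the right. At 2 h the dimmest class holds 1661 leaf-high and 218 root-high genes, against 399 and 863 at 0 h.

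The identifiers of these arrays are paired with no gene names here, so the strongest differences can only be given by identifier, with 2 in each direction. AK073080 read 431 and 433 in leaf and 23553 and 32687 in root, a difference of 6.01 (SE 0.52, adjusted p = 1.5e-05, limma). It was bright in root on all 10 root arrays, from 14708 at the lowest. AK110292 read 85 and 284 in leaf and 8571 and 9579 in root, a difference of 5.87. In the other direction, AK120440 read 7717 and 7251 in leaf and 41 and 73 in root, at least 43.7-fold higher in leaf with the root taken at the random-sequence feature. AK060737 read 6230 and 4914 in leaf and 38 and 48 in root, at least 32.3-fold higher in leaf. None of the 4 lost its call when an array was left out.

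Genes with high contrast before drying mostly kept their direction. Of the 100 genes with the largest root excess at 0 h, 74 were called higher in root at 2 h and 1 higher in leaf. Over all genes these shares were 6.95 and 11.5%. The fitted median difference of the 100 genes was 5.79 at 0 h and 3.38 at 2 h. Their median intensity on the leaf arrays was 88.9 and 75.4 at 0 h and 209 and 558 at 2 h, with replicate 2 the higher, while in root it went from 6212 and 6338 to 2651 and 2775. Of the 100 genes with the largest leaf excess at 0 h, 98 were called higher in leaf at 2 h and 0 higher in root. Over all genes these shares were 11.5 and 6.95%. The fitted median difference of the 100 genes was -6.43 at 0 h and -4.71 at 2 h. Their median in root was 103 and 94.5 at 0 h and 118 and 155 at 2 h, and in leaf it went from 11810 and 11110 to 3623 and 5120. These medians are not exact, because the other tissue lay below the random-sequence feature on both arrays in 69 of the root list at 0 h and 5 at 2 h, and in 59 and 51 of the leaf list. With dim values raised to that feature the medians were 5.04 and 3.22 for the root list and -5.91 and -4 for the leaf list. Fewer of the root list were called root-high at 2 h without leaf 2 h replicate 1 or either root array of 2 h. Fewer of the leaf list were called leaf-high without any single array of 2 h. Both lists were chosen at 0 h, which by itself makes the 0 h values extreme. The part of root RNA in the leaf samples, or of leaf RNA in the root samples, in the differences at 2 h was not tested.

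The called genes were compared with those of the other times, which rest on other arrays. Root-high and leaf-high genes made up 11.2 and 7.19% of all genes before drying, and the shares were 9.34 and 7.33% at 0.5 h, 9.69 and 8.27% by 6 h and 8.03 and 5.9% after 12 h. Of the 1920 root-high genes at 2 h, 1064 (55.4%) were also called root-high at 0 h, which is 34.4% of the 3089 called there, and 1472 (76.7%) at 6 h, which is 55% of the 2676 there. Of the 3176 leaf-high genes, 1101 (34.7%) were leaf-high at 0 h, 55.4% of the 1986 there, and 1881 (59.2%) at 6 h, 82.4% of the 2282 there. At 12 h, 1049 of the root-high and 1034 of the leaf-high genes were called the same way. A core of 578 root-high and 685 leaf-high genes was called the same way at all 5 times. At no other time were 187 of the root-high genes (9.74%) and 970 of the leaf-high genes (30.5%) called the same way. The latter count rests on single arrays: it became 15 without leaf replicate 2, 271 without root replicate 1 and 89 without root replicate 2, and that of root-high genes became 33, 63 and 23, or 314 without leaf replicate 1. The core was steadier, with 373 to 498 root-high and 515 to 630 leaf-high genes when 1 of the 4 arrays was dropped, the 373 being without root replicate 2. Of the shared counts, those with 6 h moved to 809 and 868 without leaf replicate 2, 823 and 1141 without root replicate 1, and 606 and 1105 without root replicate 2. Those with 0 h moved to 747 and 670, 660 and 721, and 525 and 711 in the same order, and those with 12 h to 673 and 670, 639 and 704, and 495 and 681. Across genes, the correlation of the root minus leaf difference at 2 h with that at 6 h was 0.908, against 0.602 with 0 h, where genes are not independent replicates.

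The shift of the tissue difference from 0 h to 2 h was called toward root in 162 genes (0.587%) and toward leaf in 467 (1.69%), with 4847 at an unadjusted p under 0.05. Of the 162 genes that shifted toward root, 131 had been called leaf-high at 0 h, beside 7.19% of all genes. At 2 h 56 were leaf-high, 37 root-high and 69 not called, beside 11.5% of all genes leaf-high and 6.95% root-high. Their median change was -1.16 in leaf and 1.17 in root. Of the 467 genes that shifted toward leaf, 373 had been root-high at 0 h, beside 11.2% of all genes. At 2 h 25 were root-high, 135 leaf-high and 307 not called. Their median change was 1.73 in leaf and -1.77 in root. In 202 of them leaf lay below the random-sequence feature on both arrays at 0 h. The shift is made from these same 0 h and 2 h arrays. Choosing genes by it favours these counts and changes in advance, so they are no separate result.

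These counts depend strongly on single arrays of the 8 that enter them. When an array of leaf at 0 h was dropped, 48 genes shifted toward root and 155 toward leaf (replicate 1 dropped), or 23 and 37 (replicate 2). For leaf at 2 h the same counts were 283 and 1938 on dropping replicate 1, but 33 and 39 on dropping replicate 2. For root at 0 h they came to 27 and 45 (replicate 1) or 136 and 269 (replicate 2). For root at 2 h they came to 41 and 63 (replicate 1) or 8 and 14 (replicate 2).

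**Figure D5:**
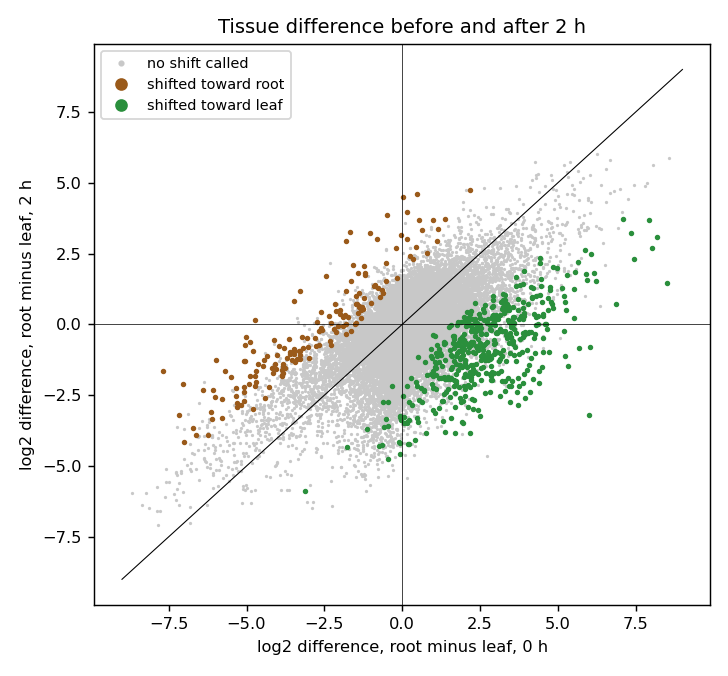
Log2 difference of root minus leaf at 2 h against that at 0 h, with 1 point per gene, brown where the shift toward root was called (162 genes), green where the shift toward leaf was called (467) and grey elsewhere, and a diagonal of equal difference. The green points lie mainly at positive values on the 0 h axis and the brown points mainly at negative ones. The shift is computed from both axes, which favours this pattern.

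A small number of genes were called in opposite directions at 0 h and 2 h. Root-high at 0 h and leaf-high at 2 h were 43 genes, with median intensities of 204 and 117 in leaf and 883 and 765 in root at 0 h, and of 502 and 1172 in leaf and 209 and 169 in root at 2 h. These genes were dim at both times, and the leaf level at 2 h was higher on replicate 2. Their number became 4 on dropping leaf 2 h replicate 2 and 153 on dropping replicate 1, 10 and 3 on dropping root 2 h replicate 1 and 2, 27 and 17 on dropping leaf 0 h replicate 1 and 2, and 15 on dropping root 0 h replicate 1. The reverse held for 7 brighter genes, with medians of 4810 and 4539 in leaf and 1213 and 2284 in root at 0 h, and of 1947 and 1769 in leaf and 6518 and 7878 in root at 2 h. The number of these ranged from 2 to 11 when 1 of the 8 arrays was dropped, from 2 without either leaf 0 h array or root 0 h replicate 1 to 11 without leaf 2 h replicate 1, with 3 and 4 without the root 2 h arrays. For all genes of both kinds the shift was called as well, which opposite calls on the same arrays nearly ensure. Between 2 h and 6 h 0 genes were called in opposite directions, and between 2 h and 12 h there was 1.

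Among the unnamed genes with a called shift, AK064016 moved from 2839 and 4718 in leaf and 617 and 2088 in root at 0 h to 1947 and 1546 in leaf and 13518 and 20112 in root at 2 h, a shift of 4.94 (SE 0.69, adjusted p = 0.00874, limma). Its tissues thus changed places, with leaf the higher before drying and root the higher after. AK060239 read 3004 and 3139 in leaf at 0 h and 80.9 and 112 at 2 h, and its fitted shift was 4.91. All of its groups but leaf at 0 h lay below the random-sequence feature, so this value is not exact, and with those groups set to that feature it becomes 4.67. In the other direction AK110467 read 1402 and 1172 in root at 0 h and 17.7 and 25.1 at 2 h, and 23.2 and 17.6 and then 71.3 and 527 in leaf. Its fitted shift of -9.19 becomes -3.58 with every value below the random-sequence feature raised to it. Leaf 2 h replicate 1 (71.3) was among the values raised, which enlarges the shift toward leaf. For AK110467 -3.58 is therefore not a lower bound on the size. AK063672 read 8993 and 10989 in root at 0 h and 1409 and 749 at 2 h, and 33.6 and 21.9 and then 190 and 745 in leaf, a fitted shift of -7.07 that becomes -4.32 in the same way. In both of these genes leaf replicate 2 at 2 h was several times above replicate 1. The calls of 3 of the 4 were lost without particular arrays, the adjusted p reaching 0.0611 for AK064016, 0.0732 for AK060239 and 0.0687 for AK063672, and up to 0.0456 for AK110467.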

How the data were processed

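The arrays were single-colour 3′-tiling arrays with Cy3-labelled total RNA. The authors deposited intensity values on a linear scale, 1 per gene and array, summarised by RMA per the submitters' processing notes. The background step and the set of arrays normalized together are not given in the sources used here, and a shared normalization can hide a change that affects most genes. The table of all arrays and the series value table differed by 0. The 1 column of standard errors of a single array was not used, nor were the authors' log2 fold changes in a supplementary table.

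Intensities were taken to log2 with no filter and no further normalization. The 10 groups were fitted to all 20 arrays with lmFit and eBayes in limma 3.58.1 (R 4.3.3), leaving 10 degrees of freedom for the spread beside a prior of 3.43, and p-values were adjusted over the 27609 genes within each comparison. The thresholds are those of the study's methods. The script was tested on simulated data.

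The members, gene lists and tests were chosen with earlier results of these data known. The named genes were taken from those to which the study gives an identifier (11 of 12 are analysed here, the gene ubi is not) and at most 2 unnamed identifiers in each direction, by the size of the difference. The rule also covered named genes and gene lists, but 0 identifiers matched the RefSeq table of gene names, so pathway and cell type lists, and with them the markers of root, could not be applied. The named photosynthesis genes served as leaf markers. The study had singled out CB1 to CB6, ADF and AWPM by their induction on these same arrays. Where both arrays of the dimmer group lay below the random-sequence feature, the fold is at least the brighter mean over that feature. Primer sequences come from a supplementary table of the study. Alternatives covered normalization, dim values, thresholds, the arrays fitted and each array left out.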

Additional observations from a re-analysis of the deposited data

Results flagged for a closer look

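The test of the difference between root and leaf changes from 0 h to 2 h (limma) set apart 162 genes that shifted toward root and 467 that shifted toward leaf. Of the named genes it set apart CB2 (2.33) and CB6 (6.05), and of the identifiers without a name AK064016 (4.94), AK060239 (4.91), AK110467 (-9.19) and AK063672 (-7.07), all as fitted log2 differences. With values below the random-sequence feature raised to it, 4 of these become 5.33 for CB6, 4.67 for AK060239, -3.58 for AK110467 and -4.32 for AK063672. The groups hold 2 arrays each, and a test for 1 outlying sample needs more, so none was made.

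The control features named for transgenes, which these plants do not carry, read above the random-sequence feature on all 4 arrays at 2 h. The lowest ratio to that feature was 2.13 for Bar, 1.54 for gus, 4.01 for Hygromycin, 3 for Knamycin (as spelled on the array) and 13.9 for sGFP, whose intensities of 2209 to 3942 exceed those of many genes called leaf-high. The random-sequence feature is the lowest of the 6 controls on these arrays, and a fold bound taken from any other of them would be smaller.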

How the results depend on the processing

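With 2 arrays a group, and the lone array of a group assumed to vary like the others when 1 is left out, counts of calls moved with the processing. Of the counts over all genes, 97 moved beyond the limit set for counts and 137 stayed within it. Of the values for single genes and lists, 856 stayed the same. For a gene this means the same side of the threshold, and for a count a value within the limit set for counts. Genes that were not called, such as dip1, are among them. Another 38 lost the call, 8 gained it and 65 counts moved beyond that limit. The counts of shared and opposite calls and BAC rises with each array left out were added after seeing the data. No value changed direction past the threshold, and the cause of these moves was not tested.

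In each pair below the genes higher in root, or shifted toward root, come first. At 2 h the counts were 3019 and 2804 with quantile normalization, 1568 and 1279 without the dimmest 25% of genes, 316 and 678 with treat against a log2 difference of 1, and 1052 and 1527 with only the arrays of 2 h. Leaving out the 3 calls higher in root and 35 higher in leaf with both tissues below the random-sequence feature, a choice made after seeing the data, gave 1917 and 3141. Treat at the other times gave 1042 and 839 (0 h), 636 and 819 (0.5 h), 365 and 379 (6 h) or 346 and 448 (12 h). Without the dimmest genes 2023 were root-high at 0 h and 1265 leaf-high at 6 h. With only the arrays of the time, 504 and 690 were called at 0.5 h and 3728 were leaf-high at 6 h.

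The shifts toward root numbered 415 with quantile normalization, 251 with arrays centred and 249 with dim values raised, and those toward leaf 136 without the dimmest genes. Treat gave 3 and 5, and only the arrays compared gave 1 and 2. Genes changed in leaf were 1962 lower with quantile normalization, 912 higher without the dimmest, 76 higher and 23 lower with treat, and 11 and 1 with only the arrays compared. In root they were 777 lower with dim values raised and 102 higher and 25 lower with treat.

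With arrays left out, the counts at 2 h ran from 690 to 2588 higher in root and 951 to 3861 in leaf. The same ranges were 2011 to 3758 and 1435 to 2337 for 0 h, 1310 to 3986 and 1628 to 2868 for 0.5 h, 870 to 3693 and 804 to 2995 for 6 h, 865 to 3030 and 793 to 2134 for 12 h. The shifts ran from 8 to 537 toward root and 14 to 1938 toward leaf, the changes in leaf from 280 to 3557 higher and 158 to 1606 lower, and those in root from 138 to 743 higher and 63 to 975 lower. The upper ends, save those at 0.5 h and the 1938, came from leaving out leaf 0.5 h replicate 1 and root 0.5 h replicate 2, the least alike arrays.

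The replicate numbers were checked as a block. Deviations of same-numbered arrays correlated from -0.164 to 0.72 over the 45 pairs of groups, 0.165 between leaf and root at 2 h, and were above 0 on average for all 10 groups, a hint from the data and not the design, so the numbers were not taken to pair the samples. With the replicate block, 2232 and 3797 genes were called at 2 h, 296 and 754 shifted, and 864 were lower in root at 2 h than at 0 h. The AWPM shift was then called (adjusted p = 0.0339), as it was under 5 other settings (0.0196 to 0.0482).

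Treat left rbcS (adjusted p = 0.099), CB6 (0.821) and AWPM (0.373) uncalled at 2 h, ADF (1) uncalled at 0 h, and the shifts of CB2 (0.484), AK064016 (0.0708), AK060239 (0.0882) and AK063672 (0.0709) uncalled, with 19 CAA and 1 BAC features leaf-high at 2 h. With only the arrays compared, rbcS at 2 h (0.0523), ADF at 0 h (0.0599) and the shifts of CB2 (0.0673), AK064016 (0.0577), AK060239, AK110467 and AK063672 (0.0519 each) were uncalled, with 6 BAC features leaf-high.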
